A study of Homo sapiens with 12 samples.

Results

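Interferon-stimulated genes are the genes that cells switch on when interferon, a signal of infection, binds its receptors. The receptors act through Janus kinases on transcription factors of the STAT family, among them STAT2, which joins IRF9 in a complex that binds interferon-stimulated response elements near the genes it controls. Interferon gamma acts through gamma-activated sites. Many breast cancer lines keep some of these genes on without added interferon, and glucocorticoids, which act through the glucocorticoid receptor, are known for restraining inflammatory and interferon-driven transcription.

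A set of 44 such genes was followed, taken by symbol from a table of 51838 genes, where DDX58 is the gene of the RNA sensor RIG-I. All 44 were found, and all 44 passed the filter on low counts that left 28141 genes for testing. RNA had been sequenced from 3 libraries each of HCC70 cells given 100 nM dexamethasone (a synthetic glucocorticoid) for 4 h, HCC70 cells given ethanol vehicle, MDA-MB-231 cells given 100 nM dexamethasone for 4 h, and MDA-MB-231 cells given ethanol vehicle. No interferon was among the labelled treatments, and both lines are unedited breast cancer lines grown in medium with serum. HCC70 was grown in RPMI medium and MDA-MB-231 in DMEM, so that line and medium cannot be told apart. The series asked which genes the glucocorticoid receptor and STAT3 control. The labels do not say whether replicates were separate cultures, and p-values measure only the spread between these libraries, which may be technical.

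Libraries held 106345287 to 123218973 counts. The glucocorticoid targets FKBP5, TSC22D3 and PER1 rose in both lines, FKBP5 to a mean of 218 CPM (counts scaled to a common library size) with dexamethasone in HCC70, against 35.2 CPM with vehicle, and to 1120 CPM in MDA-MB-231, against 56.2 CPM. Both lines are labelled basal-like. In vehicle the basal keratin KRT5 stood at a mean of 2600 CPM in HCC70 and 0.804 CPM in MDA-MB-231, and the mesenchymal gene VIM at 145 CPM and 2210 CPM. MDA-MB-231 thus nearly lacked this keratin. Of 6 basal genes listed, 5 were higher in HCC70 in vehicle (edgeR, adjusted p under 0.05), beside 39.2% of all tested genes. The other 1 was not called, at a log2 difference of -0.12. The leukocyte gene PTPRC averaged at most 0.187 CPM in any group. MDA-MB-231 vehicle library 1 and dexamethasone library 2 stood apart from the other libraries of their groups: Spearman's rho across genes between a library's deviation from the mean of its line and GC content was 0.259 for that dexamethasone library, against -0.522 and -0.5 for the other 2, and 0.681 for that vehicle library, against 0.172 and -0.226. Without this pair of libraries 19 of the 44 genes described next fell with dexamethasone in HCC70 and 0 rose, and 19 fell and 4 rose in MDA-MB-231. Over the 28564 genes then tested, 1335 fell and 2532 rose in HCC70, and 3306 fell and 2479 rose in MDA-MB-231.

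Dexamethasone was followed by lower levels of many interferon-stimulated genes in both lines, and the changes were small. In HCC70, 14 of the 44 passed the threshold (edgeR quasi-likelihood test, Benjamini-Hochberg adjusted p under 0.05) and all 14 were lower, where 3.96% of the 28141 tested genes passed, 2.55% as higher and 1.4% as lower. In MDA-MB-231 the threshold was passed by 20, of which 16 were lower and 4 higher, where 14.6% of tested genes passed, 6.65% as higher and 7.96% as lower. Over all tested genes the HCC70 calls were 719 higher and 395 lower, and with scaling by library size alone 552 and 762. The called members were then 0 higher and 16 lower. That scaling moved the median log2 fold change of all tested genes down to -0.098, so it does not test the members' direction. The median log2 fold change of the 44 was -0.158 in HCC70 and -0.181 in MDA-MB-231, beside a median of -0.01 over all tested genes in each line. At an unadjusted p under 0.05 there were 20 lower and 0 higher in HCC70, beside 9.43% and 8.88% of tested genes, and 22 lower and 5 higher in MDA-MB-231, beside 16.9% and 13.3%. In HCC70 DESeq2 and limma voom, the other tests run, also called 0 higher.

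Summed over the 44 genes, the HCC70 libraries held 1749, 1716 and 1732 CPM with dexamethasone, against 1971, 1947 and 1931 CPM with vehicle. The MDA-MB-231 libraries held 745.2, 770.2 and 756.9 CPM with dexamethasone, against 932.0, 942.9 and 955.8 CPM with vehicle. In neither line did the sums of the treatments overlap, and they were higher in every HCC70 library than in any MDA-MB-231 library. Abundant genes weigh most in such a sum, so it does not show how many genes fell. IRF1, the most abundant by CPM, averaged 198 CPM with dexamethasone and 261 CPM with vehicle in HCC70. In MDA-MB-231 it averaged 130 and 205 CPM. In bulk RNA, fewer cells that carry a transcript and less RNA per cell cannot be told apart.

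The genes that fell in both lines numbered 11: IFIT1, IFIT2, IFIT3, OASL, RSAD2, SAMD9, SAMD9L, DDX58, IRF1, GBP1 and GBP2, where 0.48% of tested genes passed as lower in each line. They made up 78.6% of the 14 that fell in HCC70 and 68.8% of the 16 that fell in MDA-MB-231. OAS2, IFI44 and TRIM21 passed the threshold as lower in HCC70 alone, and ISG15, OAS3, IFITM1, IFITM2 and USP18 in MDA-MB-231 alone. For none of these 8 did the difference between the lines' responses pass the threshold, although 5 of the 8 had an unadjusted p under 0.05 for it. IFI44L, EPSTI1, TRIM22 and SP110 rose in MDA-MB-231, and the other 21 genes passed the threshold in neither line.

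**Figure D1:**
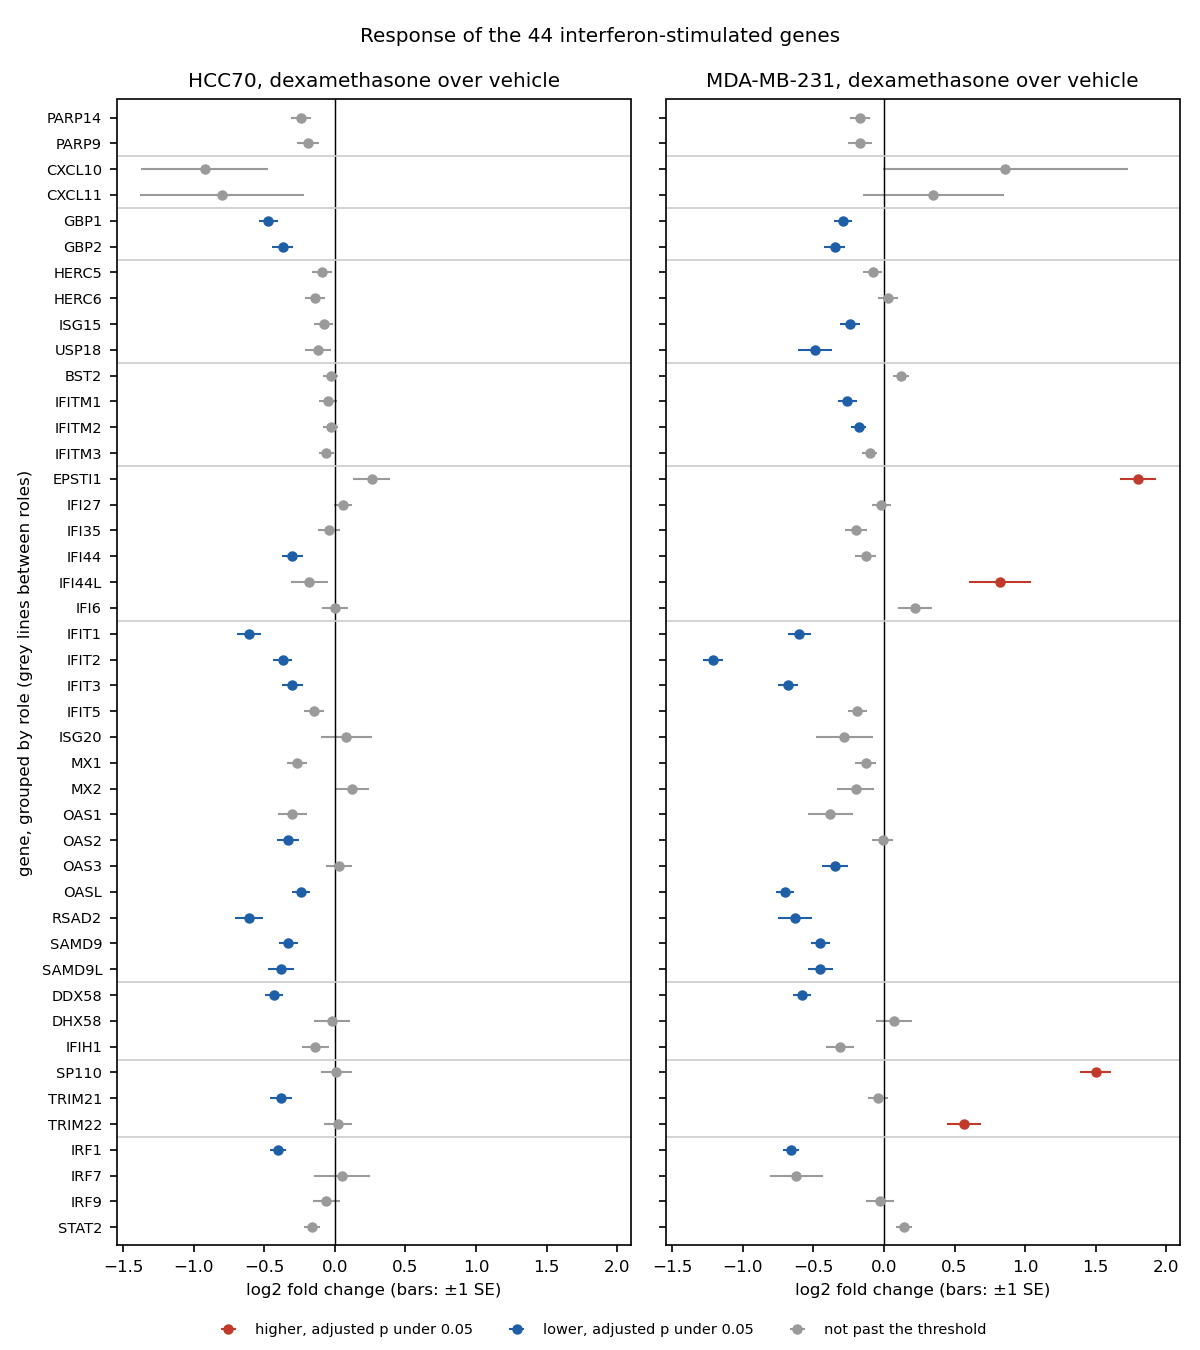
Log2 fold change of each of the 44 genes, dexamethasone over vehicle, in HCC70 (left) and MDA-MB-231 (right); points are edgeR estimates from 3 libraries a group, bars are 1 SE, and colour marks direction and threshold. In HCC70 the 14 called genes all lie left of 0, and in MDA-MB-231 16 lie left and 4 (IFI44L, EPSTI1, TRIM22 and SP110) lie right.

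Every dexamethasone library lay below every vehicle library for 25 of the 44 genes in HCC70, where 15.3% of tested genes did so, and for 17 in MDA-MB-231, where 13.3% did. The opposite order held for 2 genes in HCC70 (MX2 and EPSTI1), beside 17.1% of tested genes, and for 5 in MDA-MB-231 (IFI44L, STAT2, EPSTI1, TRIM22 and SP110), beside 13.9%. Decreases of at least 1.5-fold that passed the threshold numbered 2 in HCC70 (IFIT1 and RSAD2) and 6 in MDA-MB-231 (IFIT1, IFIT2, IFIT3, OASL, IRF1 and RSAD2), beside 0.377% and 3.96% of tested genes.

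The promoters of the genes were read for the elements through which interferon acts. RefSeq promoter windows (GRCh38.p14, 250 bases before to 50 bases after the start of the gene) were at hand for 33 of the 44 genes. They were searched on both strands for the core of the interferon-stimulated response element, which is GAAA, any pair of bases and GAAA again, for the gamma-activated site, TTCNNNGAA, and for the glucocorticoid response element, ACANNNTGT. The response element core stood in 22 of the 33 windows (66.7%), beside 3.57% of 35116 promoter windows. The gamma-activated site stood in 10 (30.3%, beside 7.66%), and the glucocorticoid element in 1, that of HERC5 (3.03%, beside 5.37%). By response, the core was in 4 of the 7 windows of genes that fell in both lines, in all 5 of genes that fell in 1 line only, in 2 of the 3 of genes that rose in MDA-MB-231 and in 11 of the 18 of genes called in neither line. A match is a run of letters in a window and not a measured binding site.

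The 250 bases before the start follow for 5 genes on which the results turn, 5′ to 3′ on the strand of the gene, with capitals for the response element core and the gamma-activated site on either strand. IFIT1 (chr10:89392373-89392622, plus strand) has 2 cores, both on the opposite strand, IRF1 (chr5:132490774-132491023, minus strand) a gamma-activated site, and GBP1 (chr1:89065209-89065458, minus strand) 1 core; these 3 genes fell in both lines. EPSTI1 (chr13:42992242-42992491, minus strand), which rose in MDA-MB-231, has a gamma-activated site that runs into a core, and SP110 (chr2:230225637-230225886, minus strand), which also rose there, has neither motif in the window.
IFIT1: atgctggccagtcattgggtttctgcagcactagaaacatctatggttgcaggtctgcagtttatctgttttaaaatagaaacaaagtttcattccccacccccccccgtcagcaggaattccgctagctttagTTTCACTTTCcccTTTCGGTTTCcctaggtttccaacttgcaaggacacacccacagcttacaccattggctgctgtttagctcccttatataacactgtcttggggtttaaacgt
IRF1: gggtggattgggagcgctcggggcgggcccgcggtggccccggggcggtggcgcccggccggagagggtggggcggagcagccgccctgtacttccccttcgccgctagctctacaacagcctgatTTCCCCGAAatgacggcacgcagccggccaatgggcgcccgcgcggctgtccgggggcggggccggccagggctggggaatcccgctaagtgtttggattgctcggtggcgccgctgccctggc
GBP1: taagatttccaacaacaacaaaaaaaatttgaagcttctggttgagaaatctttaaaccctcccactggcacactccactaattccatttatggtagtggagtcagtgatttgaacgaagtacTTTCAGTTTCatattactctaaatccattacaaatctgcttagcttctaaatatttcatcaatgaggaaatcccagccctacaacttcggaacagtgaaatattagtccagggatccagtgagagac
EPSTI1: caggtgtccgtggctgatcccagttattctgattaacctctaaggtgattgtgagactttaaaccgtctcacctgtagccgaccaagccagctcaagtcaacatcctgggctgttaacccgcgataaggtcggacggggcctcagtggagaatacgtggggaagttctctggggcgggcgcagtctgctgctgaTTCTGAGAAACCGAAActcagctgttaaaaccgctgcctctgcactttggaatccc
SP110: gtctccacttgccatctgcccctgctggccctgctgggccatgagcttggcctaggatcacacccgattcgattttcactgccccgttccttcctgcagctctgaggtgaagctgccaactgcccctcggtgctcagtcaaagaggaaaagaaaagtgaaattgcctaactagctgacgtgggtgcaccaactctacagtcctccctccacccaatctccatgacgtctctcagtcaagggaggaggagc
The first base of the cores of IFIT1 lies 116 and 103 bases before the start, that of GBP1 127 bases, that of EPSTI1 50 bases, and the gamma-activated site of IRF1 124 bases.

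Of the sensors of viral RNA, DDX58, which detects short double-stranded RNA, fell in both lines. In HCC70 it had 31, 31.6 and 30.3 CPM with dexamethasone, against 44.2, 40 and 40.9 CPM with vehicle. In MDA-MB-231 it had 28.6, 27.8 and 27.2 CPM with dexamethasone, against 38.8, 42 and 44.1 CPM with vehicle. The treatments did not overlap in either line, and DDX58 fell by 0.43 ± 0.062 (log2, SE; adjusted p = 0.00093) in HCC70 and by 0.58 ± 0.062 (log2, SE; adjusted p = 1.55e-05) in MDA-MB-231. In vehicle the difference between lines did not pass, with a log2 difference of 0.0 ± 0.061 (log2, SE; adjusted p = 0.972). IFIH1, the sensor of long double-stranded RNA, did not pass in either line (-0.14 in HCC70, adjusted p = 0.472, and -0.31 in MDA-MB-231, adjusted p = 0.0534). DHX58, a regulator of these sensors, stood at -0.02 and 0.07 (log2).

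Among the transcription factors, IRF1, an activator that is itself induced by interferon gamma, fell in both lines. It had 195, 198 and 201 CPM with dexamethasone, against 259, 262 and 261 CPM with vehicle in HCC70. It had 127, 138 and 125 CPM with dexamethasone, against 210, 194 and 209 CPM with vehicle in MDA-MB-231. No library of one treatment reached the range of the other, and IRF1 fell by 0.4 ± 0.056 (log2, SE; adjusted p = 0.000824) in HCC70 and by 0.66 ± 0.056 (log2, SE; adjusted p = 1.82e-06) in MDA-MB-231. Its exons share 1716 bases with those of C5orf56, and counting without strand cannot separate the pair. C5orf56 averaged 262 counts with dexamethasone and 381 with vehicle in HCC70 (log2 fold change -0.48, adjusted p = 0.0519), and 145 and 185 in MDA-MB-231 (-0.44, adjusted p = 0.0461). In the same unit, IRF1 held 21818, 21747 and 22494 counts with dexamethasone and 30895, 29061 and 30387 with vehicle in HCC70. In MDA-MB-231 it held 16578, 17042 and 16173 counts with dexamethasone and 25106, 24900 and 23907 with vehicle. The part of shared reads in the fall of IRF1 was not tested. STAT2, part of the complex that binds the response element, passed in neither line alone. It had 45.5, 42.4 and 42.1 CPM with dexamethasone, against 48.7, 48.5 and 48.3 CPM with vehicle in HCC70 and 34.1, 36.3 and 37.4 CPM with dexamethasone, against 31.5, 33.4 and 33.2 CPM with vehicle in MDA-MB-231. The libraries separated downward in HCC70 (-0.16 ± 0.056, log2, SE; adjusted p = 0.139) and upward in MDA-MB-231 (0.14 ± 0.056, log2, SE; adjusted p = 0.119). IRF9, the DNA-binding partner in the same complex, stood at -0.06 and -0.03, and IRF7, which amplifies interferon production, at 0.05 in HCC70 and -0.62 in MDA-MB-231 (adjusted p = 0.929 and 0.0601). The value of IRF7 in HCC70 turned to -0.26 when each library was adjusted for the GC content and length of genes, and then passed the threshold as lower.

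The RNA-binding and enzymatic effectors were the largest group by role. Of these 14 genes 8 fell in HCC70, beside 1.4% of all tested genes, and 8 in MDA-MB-231, beside 7.96%. The median log2 fold changes of the 14 were -0.298 and -0.412. The IFIT proteins bind viral RNA as partners of each other. IFIT1 had 5.21, 5.65 and 4.84 CPM with dexamethasone, against 8.07, 8.52 and 7.41 CPM with vehicle in HCC70. It had 13.9, 13.8 and 15.3 CPM with dexamethasone, against 20.4, 23.3 and 21.3 CPM with vehicle in MDA-MB-231. The treatments stood clear of each other, with falls of 0.61 ± 0.086 (log2, SE; adjusted p = 0.000788) in HCC70 and 0.6 ± 0.082 (log2, SE; adjusted p = 0.000171) in MDA-MB-231.

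IFIT2 had 14.4, 14.2 and 15.4 CPM with dexamethasone, against 19.8, 18.8 and 18.4 CPM with vehicle in HCC70. It had 9.92, 10.5 and 10.6 CPM with dexamethasone, against 21.8, 25.4 and 24.7 CPM with vehicle in MDA-MB-231, where the lowest vehicle library lay far above the highest dexamethasone library. IFIT2 fell by 0.37 ± 0.07 (log2, SE; adjusted p = 0.00745) in HCC70 and by 1.21 ± 0.071 (log2, SE; adjusted p = 3.3e-08) in MDA-MB-231, a 2.32-fold decrease and the largest called fall among the 44 genes in either line. Its exons share 356 bases with RP11-149I23.3, which averaged 81 counts with dexamethasone and 142 with vehicle in MDA-MB-231, and 65 bases with LIPA. IFIT2 itself held 1296, 1302 and 1364 counts with dexamethasone in MDA-MB-231, against 2605, 3250 and 2815 with vehicle. IFIT3 had 14, 13.2 and 12.5 CPM with dexamethasone, against 17.3, 16.1 and 15.2 CPM with vehicle in HCC70. It had 31.7, 29.8 and 31.6 CPM with dexamethasone, against 45.8, 52 and 51.2 CPM with vehicle in MDA-MB-231. It fell by 0.3 ± 0.071 (log2, SE; adjusted p = 0.0324) in HCC70 and by 0.68 ± 0.069 (log2, SE; adjusted p = 1.08e-05) in MDA-MB-231, with no overlap of treatments. IFIT5, another of the family, was lower by values that did not pass (-0.15 and -0.19, adjusted p = 0.267 and 0.0827).

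The oligoadenylate synthetases OAS1, OAS2 and OAS3 make the short nucleotide chains that switch on RNase L, and OASL is a relative that works through RIG-I. OASL had 17.7, 18.3 and 18.2 CPM with dexamethasone, against 22.6, 21.6 and 20 CPM with vehicle in HCC70. It had 8.6, 8.09 and 8.38 CPM with dexamethasone, against 13.1, 14.1 and 13.6 CPM with vehicle in MDA-MB-231. The groups did not overlap, and OASL fell by 0.24 ± 0.064 (log2, SE; adjusted p = 0.0491) in HCC70, just inside the threshold, and by 0.7 ± 0.065 (log2, SE; adjusted p = 4.11e-06) in MDA-MB-231. OAS2 had 8.53, 7.45 and 7.48 CPM with dexamethasone, against 9.93, 10.2 and 9.29 CPM with vehicle in HCC70, all 3 lower, and fell by 0.33 ± 0.078 (log2, SE; adjusted p = 0.0313). In MDA-MB-231 OAS2 overlapped between treatments (-0.01, adjusted p = 0.965). OAS3 was called in the other line. It had 22, 26.1 and 24.8 CPM with dexamethasone, against 34.2, 31.7 and 26.9 CPM with vehicle in MDA-MB-231, where it fell by 0.35 ± 0.092 (log2, SE; adjusted p = 0.0204), and overlapped in HCC70 (0.03, adjusted p = 0.882). OAS1 stood at -0.3 and -0.38 and passed in neither line (adjusted p = 0.144 and 0.13).

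RSAD2, or viperin, makes a nucleotide that ends viral RNA chains. It had 8.01, 7.3 and 7.29 CPM with dexamethasone, against 13, 10.9 and 10.6 CPM with vehicle in HCC70. It had 1.45, 1.48 and 1.28 CPM with dexamethasone, against 2.06, 1.98 and 2.49 CPM with vehicle in MDA-MB-231, a lower level with either treatment. The libraries did not overlap, and RSAD2 fell by 0.61 ± 0.1 (log2, SE; adjusted p = 0.00364) in HCC70 and by 0.63 ± 0.12 (log2, SE; adjusted p = 0.0025) in MDA-MB-231. SAMD9 and SAMD9L are paralogous antiviral proteins that restrain cell growth. SAMD9 had 36.9, 36.3 and 36.4 CPM with dexamethasone, against 47, 44.9 and 46.1 CPM with vehicle in HCC70. It had 22.7, 22.7 and 23.1 CPM with dexamethasone, against 27.2, 33.5 and 32.6 CPM with vehicle in MDA-MB-231. SAMD9 fell by 0.33 ± 0.069 (log2, SE; adjusted p = 0.0146) in HCC70 and by 0.45 ± 0.07 (log2, SE; adjusted p = 0.00051) in MDA-MB-231, with all dexamethasone libraries low. SAMD9L had 17.2, 17.5 and 16.1 CPM with dexamethasone, against 22.7, 20.6 and 22.7 CPM with vehicle in HCC70. It had 16.2, 17.2 and 17.1 CPM with dexamethasone, against 19.4, 23.9 and 25.9 CPM with vehicle in MDA-MB-231. It fell by 0.38 ± 0.091 (log2, SE; adjusted p = 0.0335) in HCC70 and by 0.45 ± 0.091 (log2, SE; adjusted p = 0.00386) in MDA-MB-231. The effectors MX1 (-0.27 in HCC70, adjusted p = 0.0547, and -0.13 in MDA-MB-231), MX2 (0.12 and -0.2) and the exonuclease ISG20 (0.08 and -0.28) passed in neither line.

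The guanylate-binding proteins GBP1 and GBP2, GTPases that coat vacuoles and membranes of pathogens, both fell in both lines. GBP1 had 15.1, 15.2 and 16.3 CPM with dexamethasone, against 21.6, 21.9 and 20.9 CPM with vehicle in HCC70. It had 36.1, 32.5 and 35 CPM with dexamethasone, against 38.6, 44.4 and 43.5 CPM with vehicle in MDA-MB-231. It fell by 0.47 ± 0.067 (log2, SE; adjusted p = 0.000906) in HCC70 and by 0.29 ± 0.066 (log2, SE; adjusted p = 0.00948) in MDA-MB-231, without overlap. GBP2 had 65.1, 65.4 and 67.7 CPM with dexamethasone, against 90.5, 82.2 and 83.2 CPM with vehicle in HCC70. It had 12, 13 and 14.5 CPM with dexamethasone, against 16.1, 18.3 and 16.1 CPM with vehicle in MDA-MB-231. It fell by 0.37 ± 0.075 (log2, SE; adjusted p = 0.0132) in HCC70 and by 0.35 ± 0.077 (log2, SE; adjusted p = 0.00691) in MDA-MB-231, again without overlap.

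**Figure D2:**
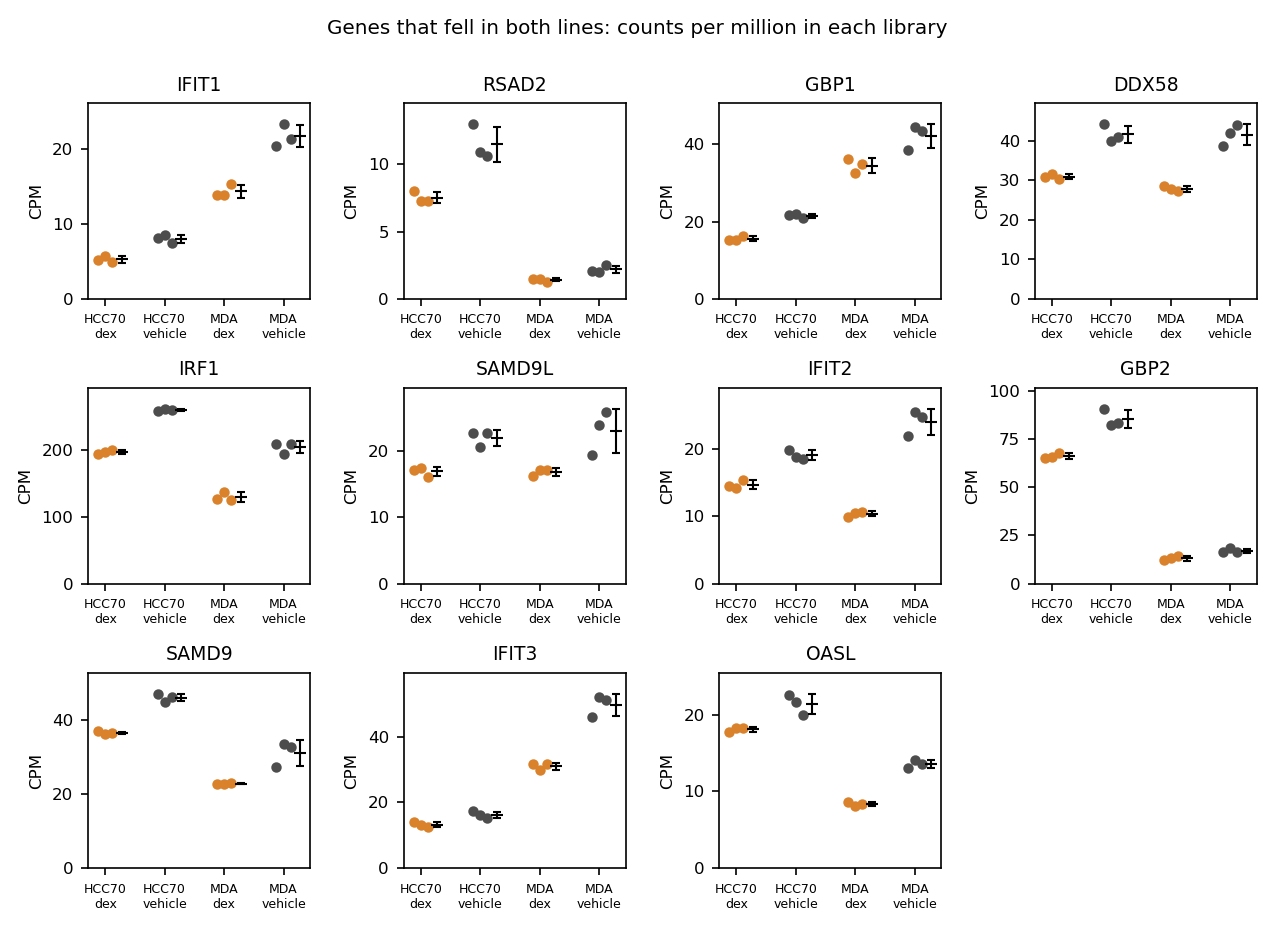
CPM in each library for the 11 genes that fell in both lines, in HCC70 with dexamethasone (dex) and vehicle and in MDA-MB-231 (MDA) with dexamethasone and vehicle; points are libraries, and the bar beside them is the mean ± SD (n = 3). In both lines the dexamethasone points of all 11 genes lie below the vehicle points, while the level of a gene such as GBP2 or RSAD2 differs more between lines than between treatments.

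ISG15 is a ubiquitin-like protein that is joined to other proteins by HERC5 and taken off by USP18, which also damps the interferon receptor. ISG15 had 20.4, 20.8 and 19.8 CPM with dexamethasone, against 25.7, 22.3 and 23.9 CPM with vehicle in MDA-MB-231, with the lowest vehicle library above the highest dexamethasone library, and fell by 0.24 ± 0.069 (log2, SE; adjusted p = 0.033). Under the adjustment for GC content and length its value there was 0.05, on the other side of 0. USP18 had 1.73, 1.35 and 1.3 CPM with dexamethasone, against 1.83, 2.02 and 2.32 CPM with vehicle in MDA-MB-231 and fell by 0.49 ± 0.12 (log2, SE; adjusted p = 0.0119). In HCC70 ISG15 and USP18 stood at -0.08 and -0.12 (adjusted p = 0.589 and 0.515). HERC5 and its relative HERC6 passed in neither line, with values between -0.14 and 0.03.

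The membrane proteins IFITM1, IFITM2 and IFITM3 hinder virus entry, and BST2 tethers budding virus. IFITM1 had 8.25, 8.94 and 8.73 CPM with dexamethasone, against 10.8, 9.44 and 10.8 CPM with vehicle in MDA-MB-231 and fell by 0.26 ± 0.066 (log2, SE; adjusted p = 0.0178). IFITM2 had 14.7, 15.1 and 15.4 CPM with dexamethasone, against 17, 16.5 and 17.7 CPM with vehicle there and fell by 0.18 ± 0.054 (log2, SE; adjusted p = 0.0441). The 3 IFITM genes are close paralogs, and IFITM1 and IFITM2 share 351 exon bases, so that reads may have been split between them and their separate values are uncertain. In HCC70 the 4 membrane genes lay between -0.06 and -0.03 and none passed.

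TRIM21, a ubiquitin ligase that binds antibody-coated virus in the cytosol, had 3.83, 3.7 and 4.16 CPM with dexamethasone, against 5.25, 5.22 and 4.75 CPM with vehicle in HCC70. It fell there by 0.38 ± 0.076 (log2, SE; adjusted p = 0.0112), without overlap, and in MDA-MB-231 the treatments overlapped (-0.04, adjusted p = 0.732). IFI44 had 56.2, 54.5 and 50 CPM with dexamethasone, against 69.8, 65.3 and 62.7 CPM with vehicle in HCC70 and fell by 0.3 ± 0.071 (log2, SE; adjusted p = 0.0312), and in MDA-MB-231 it stood at -0.13 (adjusted p = 0.249). The ADP-ribosyltransferases PARP9 and PARP14, stood at -0.19 and -0.24 in HCC70 and at -0.17 and -0.17 in MDA-MB-231, and none passed. IFI6, IFI27 and IFI35 lay between -0.2 and 0.22 in both lines and did not pass. CXCL10 and CXCL11, chemokines that draw T cells, averaged below 1 CPM in every group, and with so few counts their fold changes were not resolved (SE 0.45 to 0.87).

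EPSTI1 and SP110 rose in MDA-MB-231 and showed no such rise in HCC70. EPSTI1, an interferon-induced gene known for its induction in breast cancer cells beside stromal cells, had 3.28, 3.19 and 3.57 CPM with dexamethasone, against 0.887, 0.867 and 1.13 CPM with vehicle in MDA-MB-231. It had 1.98, 1.98 and 2.29 CPM with dexamethasone, against 1.89, 1.84 and 1.51 CPM with vehicle in HCC70. The MDA-MB-231 libraries with dexamethasone were each above every other library of the gene, and EPSTI1 rose there by 1.8 ± 0.13 (log2, SE; adjusted p = 3.91e-07), a 3.48-fold increase. In HCC70 its value was 0.26 ± 0.13 (log2, SE; adjusted p = 0.316). SP110, a nuclear body protein, had 20.7, 20.4 and 20.9 CPM with dexamethasone, against 6.38, 8.52 and 7.0 CPM with vehicle in MDA-MB-231. It had 13.2, 13.9 and 13.1 CPM with dexamethasone, against 14.8, 14.2 and 11 CPM with vehicle in HCC70, where the treatments overlapped. It rose by 1.5 ± 0.11 (log2, SE; adjusted p = 4.97e-07) in MDA-MB-231, a 2.83-fold increase, against 0.01 ± 0.11 (log2, SE; adjusted p = 0.997) in HCC70. SP110 shares 1262 exon bases with AC009950.2, which averaged 39 counts with dexamethasone and 9 with vehicle in MDA-MB-231. SP110 itself held 2699, 2524 and 2703 counts there with dexamethasone, against 763, 1091 and 799 with vehicle.

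TRIM22, an antiviral ubiquitin ligase, had 1.76, 1.87 and 2.0 CPM with dexamethasone, against 1.14, 1.37 and 1.29 CPM with vehicle in MDA-MB-231. It rose by 0.57 ± 0.12 (log2, SE; adjusted p = 0.00683) there, without overlap, and overlapped in HCC70 at a level far higher (0.02 ± 0.1, log2, SE; adjusted p = 0.945). IFI44L, a relative of IFI44, had 0.345, 0.686 and 0.511 CPM with dexamethasone, against 0.343, 0.281 and 0.245 CPM with vehicle in MDA-MB-231. The lowest dexamethasone library was barely above the highest vehicle library, and IFI44L rose by 0.82 ± 0.22 (log2, SE; adjusted p = 0.0212). In HCC70 it had 12, 12.9 and 13.2 CPM with dexamethasone, against 14.7, 14.1 and 14.4 CPM with vehicle, lower in each dexamethasone library, with a value of -0.18 ± 0.13 (log2, SE; adjusted p = 0.47).

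**Figure D3:**
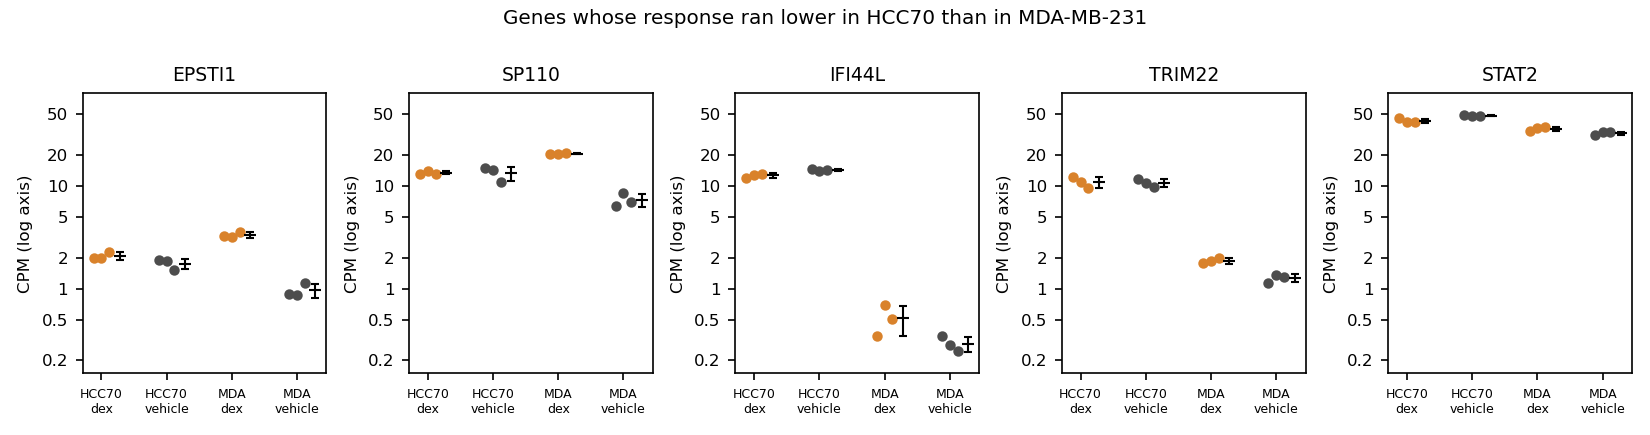
CPM (log axis) in each library for EPSTI1, SP110, IFI44L, TRIM22 and STAT2, in HCC70 with dexamethasone (dex) and vehicle and in MDA-MB-231 (MDA) with dexamethasone and vehicle; points are libraries, and the bar beside them is the mean ± SD (n = 3). In MDA-MB-231 the dexamethasone points lie above the vehicle points in all 5 panels, and in HCC70 only those of EPSTI1 do.

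The responses of the lines were compared in 1 term of the fit (the HCC70 response minus the MDA-MB-231 response). This difference passed the threshold for 9 of the 44 genes, 4 of them positive and 5 negative, where 12.1% of tested genes passed, 6.96% as positive and 5.09% as negative. IFIT2, IFIT3, OASL and IRF1 fell less in HCC70, by 0.84 ± 0.1 (log2, SE; adjusted p = 0.000101), 0.38 ± 0.099 (log2, SE; adjusted p = 0.0258), 0.46 ± 0.091 (log2, SE; adjusted p = 0.00623) and 0.26 ± 0.079 (log2, SE; adjusted p = 0.0497). The negative differences were EPSTI1 (-1.55 ± 0.19, log2, SE; adjusted p = 0.000119), SP110 (-1.49 ± 0.16, log2, SE; adjusted p = 3.86e-05), IFI44L (-1.0 ± 0.25, log2, SE; adjusted p = 0.0216), TRIM22 (-0.54 ± 0.16, log2, SE; adjusted p = 0.0434) and STAT2 (-0.3 ± 0.079, log2, SE; adjusted p = 0.0276). IFIT1, RSAD2 and GBP2, which fell in both lines, differed between them by -0.02 ± 0.12, 0.02 ± 0.16 and -0.01 ± 0.11 (log2, SE). The count was 5 without HCC70 dexamethasone library 2, 5 without HCC70 vehicle library 1, 5 without HCC70 vehicle library 2 and 4 without MDA-MB-231 dexamethasone library 3. Calls that at least 1 of these 4 omissions ended were those of IFIT3, IFI44L, IRF1, STAT2 and TRIM22 (adjusted p of the ended calls 0.0532 to 0.134). Over all 12 omissions IFIT2, OASL, EPSTI1 and SP110 kept their calls, while IFI44L lost its call in 3 (adjusted p up to 0.0554), STAT2 in 5 (up to 0.0839), IFIT3 in 6 (up to 0.101), TRIM22 in 8 (up to 0.113) and IRF1 in 10 (up to 0.134). With scaling by library size alone the split was 1 positive and 7 negative, and with the adjustment for GC content and length 9 and 4.

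The 14 calls in HCC70 became fewer when 1 of most HCC70 libraries was left out. Without HCC70 dexamethasone library 1 the count was 6, without library 2 it was 6 and without library 3 it was 8. Without HCC70 vehicle library 1 it was 6 and without vehicle library 2 it was 8, and without MDA-MB-231 dexamethasone library 3, which enters through the shared spread, it was 9. IFIT1, DDX58, IRF1, RSAD2 and GBP1 kept their calls in each of the 12 omissions and in all 16 other settings tried. IFIT2 lost its call once, without HCC70 dexamethasone library 1 (adjusted p = 0.0533). The others that lost a call in at least 1 of these 6 omissions were IFIT3, OAS2, OASL, IFI44, SAMD9, SAMD9L, GBP2 and TRIM21, with adjusted p of 0.0514 to 0.232. OASL was also lost without MDA-MB-231 dexamethasone library 1 or vehicle library 2 (adjusted p = 0.0541 and 0.0588), and SAMD9L without HCC70 vehicle library 3 (adjusted p = 0.0999). The 16 other settings also gained calls, all as lower. MX1 was gained in 12 of them, PARP14 in 7, OAS1 in 6, STAT2 in 5 and PARP9 in 4. IRF7, with its sign turned, was gained in 3, and ISG15, IFITM3 and IRF9 in 1 each.

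In MDA-MB-231 the count of 20 lay between 15 and 22 when 1 library was left out. IFIT1, IFIT2, IFIT3, OASL, DDX58, IRF1, EPSTI1 and SP110 kept their calls in every omission and every other setting that gave them a value. IFITM2 lost its call in each of the 12 omissions (adjusted p up to 0.155). Without MDA-MB-231 dexamethasone library 3, ISG15, OAS3, IFI44L, IFITM1 and USP18 were lost too (adjusted p of 0.0554 to 0.124). ISG15, OAS3 and IFITM1 were lost without dexamethasone library 1 (0.0851 to 0.155) and without vehicle library 1 (0.0586 to 0.125). OAS3 and IFI44L were lost without vehicle library 2 (0.0518 to 0.0679), IFI44L without vehicle library 3 (0.05 to 0.0945), and ISG15 without HCC70 dexamethasone library 1 (0.0568 to 0.0973) or 2 (0.0512 to 0.0682). These ranges include IFITM2. Calls were also gained in the 16 other settings. Gained as lower were IFIH1 in 7, IRF7 in 6, PARP14 in 4, IFIT5, IFI44, PARP9 and HERC5 in 3 each, and IFI35 in 1. STAT2 was gained as higher in 1. With each line fitted alone the count was 12 in MDA-MB-231 and 19 in HCC70, beside 2116 and 4828 over all genes. The order of the lines by number of calls thus depended on the shared spread.

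In vehicle most of the 44 genes stood higher in HCC70. Against MDA-MB-231, 30 were higher and 9 lower in HCC70 (edgeR quasi-likelihood test, adjusted p under 0.05), where 79.2% of tested genes passed, 39.2% as higher and 40% as lower. The libraries of the lines did not overlap for these same genes, 30 above and 9 below, beside 39.9% and 40.4% of tested genes. The median log2 difference of the 44 was 0.865, beside -0.027 over all tested genes. Under the adjustment for GC content and length IFI35 and DHX58 lost their call (adjusted p of 0.0851 to 0.123), and DDX58 (0.17, adjusted p = 0.00297) and ISG15 (-0.28, adjusted p = 0.0268) gained one. At least 2-fold higher were 21 genes, and at least 2-fold lower were 5, beside 24.8% and 23.8% of tested genes that passed at that fold.

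IFI44L had 14.7, 14.1 and 14.4 CPM in HCC70, against 0.343, 0.281 and 0.245 CPM in MDA-MB-231, a 49.4-fold difference. OAS1 had 24.1, 23.3 and 24.7 CPM in HCC70, against 0.644, 0.711 and 0.893 CPM in MDA-MB-231, or 32.1-fold. USP18 had 38.3, 37.3 and 34.8 CPM in HCC70, against 1.83, 2.02 and 2.32 CPM in MDA-MB-231, or 17.9-fold. These 3 genes stood at 2.32 CPM or less in every MDA-MB-231 vehicle library. PARP9 had 144, 136 and 130 CPM in HCC70, against 7.85, 9.88 and 9.73 CPM in MDA-MB-231, or 15-fold. IFI6 had 16.7, 18.3 and 15.7 CPM in HCC70, against 1.2, 1.33 and 1.35 CPM in MDA-MB-231, or 13.1-fold. IFITM1 had 88.1, 89.5 and 91.3 CPM in HCC70, against 10.8, 9.44 and 10.8 CPM in MDA-MB-231, or 8.66-fold. No library of one line came near the range of the other for these genes or for TRIM22. TRIM22 had 11.7, 10.8 and 9.84 CPM in HCC70, against 1.14, 1.37 and 1.29 CPM in MDA-MB-231, or 8.5-fold. CXCL10 had 0.126, 0.171 and 0.18 CPM in HCC70, against 0.0167, 0.0156 and 0 CPM in MDA-MB-231, where the MDA-MB-231 libraries held 2, 2 and 0 counts, so its 13.2-fold estimate rests on almost no reads. The adjusted p of these 8 differences was at most 8.41e-05.

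IFIT3, IFIT1, IFIT5 and HERC5 led the genes that were lower in HCC70. IFIT3 had 17.3, 16.1 and 15.2 CPM in HCC70, against 45.8, 52 and 51.2 CPM in MDA-MB-231, a 3.06-fold difference. HERC5 had 10.3, 10.2 and 10.4 CPM in HCC70, against 26.6, 28.1 and 29.7 CPM in MDA-MB-231, or 2.74-fold. IFIT1 had 8.07, 8.52 and 7.41 CPM in HCC70, against 20.4, 23.3 and 21.3 CPM in MDA-MB-231, or 2.71-fold. The IFIT cluster on chromosome 10 thus stood lower in HCC70 throughout, down to IFIT2 (1.26-fold), while most other groups stood higher. IFIT5 had 9.68, 9.03 and 8.91 CPM in HCC70, against 23.9, 25.1 and 25.6 CPM in MDA-MB-231, or 2.7-fold. TRIM21 had 5.25, 5.22 and 4.75 CPM in HCC70, against 11.8, 12.2 and 11.4 CPM in MDA-MB-231, or 2.32-fold. GBP1 had 21.6, 21.9 and 20.9 CPM in HCC70, against 38.6, 44.4 and 43.5 CPM in MDA-MB-231, or 1.96-fold, although GBP2 was 5.06-fold higher in HCC70. IRF7 had 19.4, 21.7 and 22.1 CPM in HCC70, against 49.1, 39 and 33 CPM in MDA-MB-231, or 1.92-fold. OAS2 had 9.93, 10.2 and 9.29 CPM in HCC70, against 13.1, 14.7 and 15 CPM in MDA-MB-231, or 1.45-fold, although OAS1 and OAS3 were 32.1-fold and 4.86-fold higher. The adjusted p of these 8 was at most 0.00114. ISG15, DDX58, CXCL11, SAMD9L and HERC6 did not pass, with log2 differences between -0.11 and 0.03.

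Set per length of exon, IFITM3 was the most abundant of the 44 in vehicle, at a mean of 111 RPKM (CPM per kilobase of exon) in HCC70 and 44.2 RPKM in MDA-MB-231. BST2 (87.7 RPKM), IFITM1 (83.0 RPKM), IFITM2 (40.9 RPKM) and IRF1 (33.4 RPKM) came next in HCC70. IRF1 (26.2 RPKM), ISG15 (25.5 RPKM) and BST2 (25.3 RPKM) came next in MDA-MB-231 and lay close to each other. CXCL11 and CXCL10 were the lowest in HCC70, and CXCL10 and IFI44L in MDA-MB-231.

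**Figure D4:**
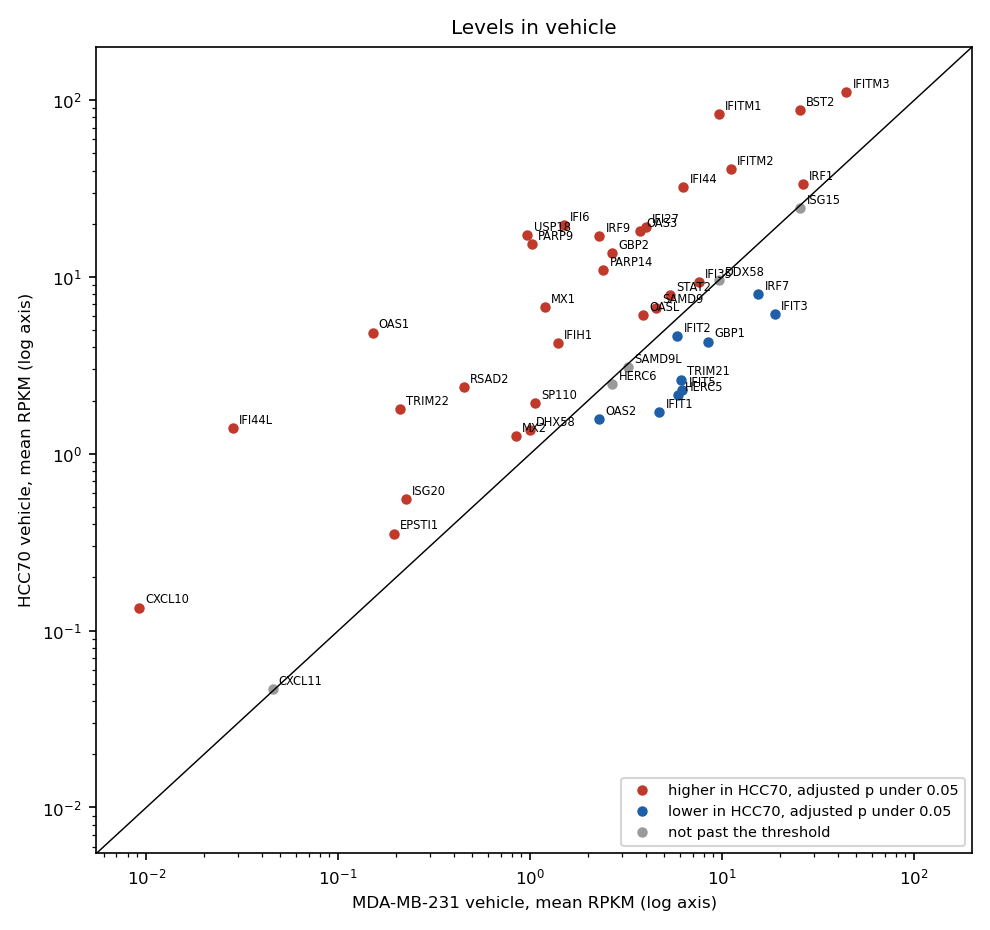
Mean level of each of the 44 genes with vehicle in HCC70 (vertical, RPKM, log axis) against MDA-MB-231 (horizontal, RPKM, log axis), n = 3 libraries each; the line marks equal levels and colour marks genes past the threshold. Points above the line include 30 called genes, with IFI44L and OAS1 far from it, and the 9 called below it include IFIT1, IFIT3, IFIT5 and HERC5.

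The rest of the pathway was measured in lists of genes outside the 44. Over all tested genes 3.96% were called in HCC70 (2.55% higher, 1.4% lower) and 14.6% in MDA-MB-231 (6.65% and 7.96%). At an unadjusted p under 0.05 it was 8.88% higher and 9.43% lower in HCC70, and 13.3% and 16.9% in MDA-MB-231. In lists this short, a count of 0 in HCC70 lies near the called share and does not show a lack of response. Of 16 interferon genes only 3 passed the filter on counts and none was called in either line (edgeR, 1 lower in HCC70 and 0 in MDA-MB-231 at an unadjusted p under 0.05). IFNE, an epithelial interferon, averaged 0.973 ± 0.16 CPM with dexamethasone and 1.4 ± 0.14 CPM with vehicle in HCC70 (SD, n = 3; adjusted p = 0.156 by edgeR) and had 0 counts in all 6 MDA-MB-231 libraries, which allows up to 0.00782 CPM with dexamethasone and 0.00829 CPM with vehicle (3 counts over the group, counting error only). IFNB1 had 1, 0 and 1 counts with dexamethasone and 5, 0 and 2 with vehicle in HCC70, and 0 in MDA-MB-231.

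Of 10 receptor and kinase genes 0 were called in HCC70 (4 lower at an unadjusted p under 0.05), and 3 rose and 1 fell in MDA-MB-231: JAK1 (0.46 ± 0.066, log2, SE; adjusted p = 0.000242), JAK2 (0.42 ± 0.1, log2, SE; adjusted p = 0.0144) and the receptor chain IFNGR1 (0.44 ± 0.075, log2, SE; adjusted p = 0.000974) rose, and the lambda receptor chain IL28RA fell by 0.54 ± 0.12 (log2, SE; adjusted p = 0.0104). Of 11 tested genes of sensing and induction, 0 were called in HCC70 (3 higher and 5 lower at an unadjusted p under 0.05), and in MDA-MB-231 the kinase IKBKE, the RIG-I ligase TRIM25 and the DNA sensor MB21D1 fell by 0.73 ± 0.1 (log2, SE; adjusted p = 0.000239), 0.42 ± 0.053 (log2, SE; adjusted p = 7.74e-05) and 0.4 ± 0.075 (log2, SE; adjusted p = 0.00223).

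Among 8 brakes on the pathway, the repressor IRF2 fell in both lines, by 0.34 ± 0.06 (log2, SE; adjusted p = 0.00487) in HCC70 and by 0.27 ± 0.06 (log2, SE; adjusted p = 0.00877) in MDA-MB-231. In MDA-MB-231 the feedback inhibitor SOCS3 fell by 0.82 ± 0.19 (log2, SE; adjusted p = 0.0142) and PIAS1 rose by 0.26 ± 0.065 (log2, SE; adjusted p = 0.0145). Of 30 other tested interferon-stimulated genes, those past the threshold in HCC70 were 5, all lower (15 lower and 1 higher at an unadjusted p under 0.05), and in MDA-MB-231 they were 9, of which 8 were lower. TRIM34, GBP3 and GBP4 were lower in both lines. In HCC70 they fell by 0.58 ± 0.096 (log2, SE; adjusted p = 0.00292), 0.46 ± 0.077 (log2, SE; adjusted p = 0.00342) and 0.49 ± 0.1 (log2, SE; adjusted p = 0.0163), and the checkpoint ligand CD274 by 0.73 ± 0.12 (log2, SE; adjusted p = 0.00292). In MDA-MB-231 APOL6 fell by 0.84 ± 0.077 (log2, SE; adjusted p = 3.4e-06), TRIM34 by 0.68 ± 0.091 (log2, SE; adjusted p = 0.000151) and GBP3 by 0.6 ± 0.078 (log2, SE; adjusted p = 0.000102), and PLSCR1 rose by 0.67 ± 0.07 (log2, SE; adjusted p = 1.21e-05). TRIM34 shares most of its exon bases with the read-through gene TRIM6-TRIM34.

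Fold changes moved with the GC content of genes in both lines, in opposite directions. Across 16621 genes, Spearman's rho between log2 fold change and GC content was 0.477 in HCC70 and -0.443 in MDA-MB-231, a description across genes that share libraries. The 14 genes that fell in HCC70 had a median GC content of 43.1%, against 51.6% for the other 30. The 16 that fell in MDA-MB-231 had 44.7%, against 48.1%. All 14 lay below the median fold change of genes within 1 point of their GC content, which was between -0.09 and 0.03 in HCC70, and 15 of the 16 did so in MDA-MB-231, where it was between -0.41 and 0.10. The exception was ISG15. These genes were picked because they were lower, and most of the medians lay near 0, so these counts do not test the trend with GC content.

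With each library adjusted for the GC content and length of genes, the counts were 14 lower and 0 higher in HCC70 and 22 lower and 4 higher in MDA-MB-231. Over the 25272 genes then tested, 626 were lower and 1299 higher in HCC70, and 3088 lower and 1846 higher in MDA-MB-231. Without the adjustment 2240 of 28141 were lower in MDA-MB-231. Of the 14 calls in HCC70, 11 were kept, and IFIT3, IFI44 and TRIM21 were lost (adjusted p of 0.0618 to 0.113). MX1, PARP14 and IRF7 were newly called as lower there. Of the 20 calls in MDA-MB-231, 19 were kept, all but ISG15. Newly called as lower were 7 genes: IFIT5, IFI44, IFIH1, IRF7, PARP9, PARP14 and HERC5. The adjusted log2 fold changes were -0.51 and -0.72 for IFIT1, -0.46 and -0.59 for IRF1 and -0.32 and -0.71 for DDX58 in HCC70 and MDA-MB-231, and 1.70 for EPSTI1 and 1.44 for SP110 in MDA-MB-231. Mitochondrial transcripts made up 2.73% to 2.82% of counts with dexamethasone and 3.47% to 3.83% with vehicle in HCC70, and 3.02% to 3.65% and 2.5% to 3.89% in MDA-MB-231. Their part in the falls of the interferon-stimulated genes was not tested.

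**Figure D5:**
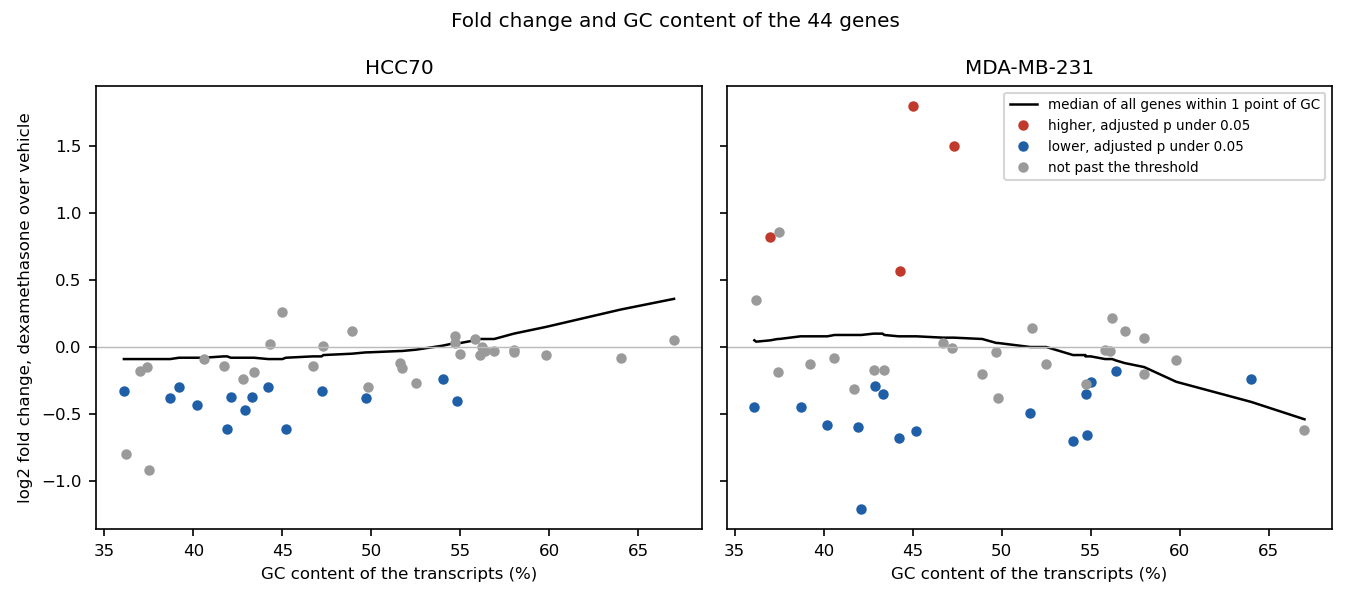
Log2 fold change (dexamethasone over vehicle) of each of the 44 genes against the GC content of its transcripts in percent, in HCC70 (left) and MDA-MB-231 (right); the line is the median of all genes within 1 point of the same GC content. The line runs up with GC content in HCC70 and down in MDA-MB-231, and the called falls lie below it, except for ISG15 in MDA-MB-231.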

How the data were processed

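The authors made libraries without strand from polyA RNA with a transposase and read them as pairs, per the labels' protocols. The submitters' processing notes name the build hg19 and the tools TopHat (1.4.1), Cufflinks (1.3.0) and, with no version, bedtools, without their roles. Which tool counted reads, and the annotation, are not given in the sources used here. The deposited values are whole-number counts per gene, with no normalization.

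From these counts, edgeR 4.0.16 (limma 3.58.1, R 4.3.3) fitted 1 mean per line and treatment over all 12 libraries, with TMM scaling, filterByExpr (minimum count 10, leaving 28141 of 51838 genes), a robust quasi-likelihood fit and 8 residual degrees of freedom. The adjusted p is Benjamini-Hochberg over all tested genes, two-sided, with a threshold of 0.05. CPM uses TMM-scaled library sizes, and RPKM divides it by exon length. GC content, length and exon overlap came from GENCODE annotation of a later build and no coordinate was taken from it. A GC and length offset per library, DESeq2 1.42.0, limma voom, other scalings, filters and blocks, and leaving out each library were the alternatives. The procedure was tested on simulated data.

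The members and all gene lists were chosen with earlier results of these data known. Values per library are given for each member past the threshold for dexamethasone or for the difference of responses, and for the 8 largest differences in each direction between lines in vehicle. Other genes are named if called, up to 4 per list and line by smallest p. The 12 libraries hold 106345287 to 123218973 counts, and precision rests on 3 libraries per group and, for genes with few counts, on depth. Limits of detection cover counting error only. The SE of a fold change comes from the quasi-likelihood test and includes the spread between libraries.
One gene of the pathway is not reported here.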

Additional observations from a re-analysis of the deposited data

Results flagged for a closer look

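For 9 of the 44 genes the response to dexamethasone differed between the lines by the test of the difference itself (HCC70 minus MDA-MB-231, log2, edgeR quasi-likelihood test, adjusted p under 0.05). The values were 0.84 for IFIT2, 0.38 for IFIT3, 0.46 for OASL and 0.26 for IRF1, which fell in both lines and fell further in MDA-MB-231. They were -1.55 for EPSTI1, -1.49 for SP110, -1.0 for IFI44L and -0.54 for TRIM22, which rose in MDA-MB-231, and -0.3 for STAT2, which passed in neither line alone. Fold changes ran with the GC content of genes in opposite directions in the lines. Under the adjustment for GC content and length IRF1 and TRIM22 lost their call (adjusted p of 0.166 and 0.115), and the other 7 kept theirs.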

How the results depend on the processing

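Of the 44 genes, the number past the threshold in HCC70 was 14 and became 9 with a replicate block and 19 with each line alone. It became 22 with a GC and length offset with each line alone, and 6 to 16 without 1 library. In MDA-MB-231 it was 20, and 12 with each line alone, 8 with each line alone and a replicate block, and 15 to 22 without 1 library. For the difference of the responses it was 9, and 5 with a replicate block, 4 to 12 without 1 library. Between lines in vehicle it was 39, and 39 to 41 without 1 library. Over all genes, the HCC70 count of 1114 became 1679 with the DESeq2 Wald test, 695 with a replicate block, 4828 with each line alone, 4131 with both, 1925 with the GC and length offset, 3907 with that offset and each line alone, 3867 with MDA-MB-231 vehicle 1 and dexamethasone 2 left out, and 510 to 1775 without 1 library. The MDA-MB-231 count of 4110 became 2116 with each line alone, 1146 with a replicate block as well, and 2424 to 6452 without 1 library. The count of differences, 3391, became 2059 with a replicate block, 6206 with those 2 libraries left out and 1614 to 6259 without 1 library. In vehicle, 22294 became 11980 under the strict filter (5 CPM), which tests fewer genes, and 21711 to 22757 without 1 library. The cause of the other shifts was not tested.

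Direction reversed for IRF7 in HCC70 (-0.26, -0.26 and -0.25, against 0.05) and for ISG15 in MDA-MB-231 (0.05, 0.05 and 0.06, against -0.24) under the GC and length offset alone, with the replicate block and with each line alone. IRF7 passed the threshold as lower in HCC70 in these 3 fits. With library-size scaling the median difference of all genes was -0.125, against -0.015, and its split was 1766 positive and 2498 negative, against 1960 and 1431. No steady pairing by replicate number was seen. Deviations of same-numbered dexamethasone and vehicle libraries correlated at -0.233, 0.118 and 0.0105 in HCC70 and at -0.634, -0.261 and 0.33 in MDA-MB-231. Such correlations cannot show that the libraries were unpaired. Besides the 3 libraries per group, depth limits the genes with few counts, among them CXCL10, CXCL11 and, in MDA-MB-231, IFI44L (45, 85 and 66 counts with dexamethasone, against 41, 36 and 28 with vehicle) and OAS1.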
